A study of Mus musculus with 23 samples.

Results

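The genes described here encode the nuclear part of the oxidative phosphorylation machinery of mitochondria, measured in single cells of the mouse brain. They were chosen by symbol. Of the 32285 genes in the deposited matrix, 90 have a symbol that starts with Ndufa, Ndufb, Ndufc, Ndufs, Ndufv, Uqcr, Cox4i, Cox5, Cox6, Cox7, Cox8 or Atp5, and 87 of these reached 10 CPM in at least 1 cell class. UMIs (unique molecular identifiers) each mark 1 captured transcript, and CPM is the number of a gene's UMIs in every 1000000 UMIs of the cells summed. These 87 genes are called the members. They hold 45 genes of complex I, 8 of complex III, 17 of complex IV and 17 of complex V. The 3 genes left out were Cox7b2, whose highest class level was 8.85 CPM, Cox6a2 with 6.76 and Cox8c with 0.0241. The members nearest to the threshold were Ndufaf1 with 26.3 and Ndufaf5 with 30.9. The symbols also bring in 8 assembly factors of complex I (Ndufaf1 to Ndufaf8), which help to build the complex and are not part of it. Cox7a2l, a factor of respiratory supercomplexes, and the small proteins Atp5md and Atp5mpl, associated with complex V, come in the same way.

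Complex I takes electrons from NADH, complex III passes them from ubiquinol to cytochrome c, and complex IV hands them to oxygen. The proton gradient that these complexes build drives complex V, the ATP synthase. Each of these complexes combines subunits from nuclear genes with subunits from the mitochondrial genome, and some nuclear subunits of complex IV come in isoforms that replace the common one in certain tissues.

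The cells came from brains from which the medulla, pons, cerebellum and olfactory bulbs had been removed. Mice, aged 12 weeks by the study's design text and 3.3 months by the sample labels, were given an AF647-labelled antibody at 45 mg/kg through the tail vein, were perfused 24 hours later, and their brains were dissociated in the presence of actinomycin D and anisomycin, which block transcription and translation. Mice of the genotype TfR mu/hu KI, whose transferrin receptor gene carries a human part, received ATV-TfR (label DNP02_hIgG1_LALAPG_ATV35.23.2 - Alexa647). Mice of the genotype CD98hc mu/hu KI, altered in the same way at the gene of CD98hc, received ATV-CD98hc (label DNP02 LALAPG LLB2-10-8 monovalent - Alexa647). C57BL/6J mice received control IgG (label DNP02_hIgG1_LALAPG_Alexa647). An ATV (antibody transport vehicle) is an antibody built to bind a receptor on the vessels of the brain. Treatment and genotype coincide, so their effects cannot be told apart. Live cells were sorted by AF647 into a negative, a low, a medium and a high bin. The gates were set on the positive cells of ATV-TfR mice and used for all. Each treatment had 2 pools, made of 1 male and 1 female each, and every bin of a pool gave 1 library, except that control IgG negative has only replicate 2. This gives 23 libraries in 12 groups.

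Library totals ran from 1861238 to 90307818 UMIs, and 233476 cells were kept, 519 to 19340 per library. Of the barcodes of kept cells, 2.93% occurred in more than 1 library. Cells fell into 35 clusters, of which 31 were named from marker genes and joined into 14 classes, written with the ending -like. The members took no part in the clustering. The 4 unnamed clusters held 6163 cells (2.64%), and together they made up 0.576% to 6.24% of the cells of a group. In 6 libraries the members were low in most classes at once. These were ATV-CD98hc negative, medium and high of replicate 1 and control IgG negative, medium and high of replicate 2. There the summed level of the members lay, as a median over classes, 0.24 to 0.32 below the class medians on the log2 scale (shifts of -0.32 to -0.24), against shifts of -0.07 to 0.2 in the other libraries. The mitochondrially encoded subunits had shifts of 0.11 to 0.55 in the same 6 libraries. The 6 libraries were picked by this level of the members, as those with a median shift of more than 0.2 below the class medians. Results without them therefore depend on the values that picked them. Counts of members called that move by over 1.5 times without these 6 libraries are given both ways.

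**Figure D1:**
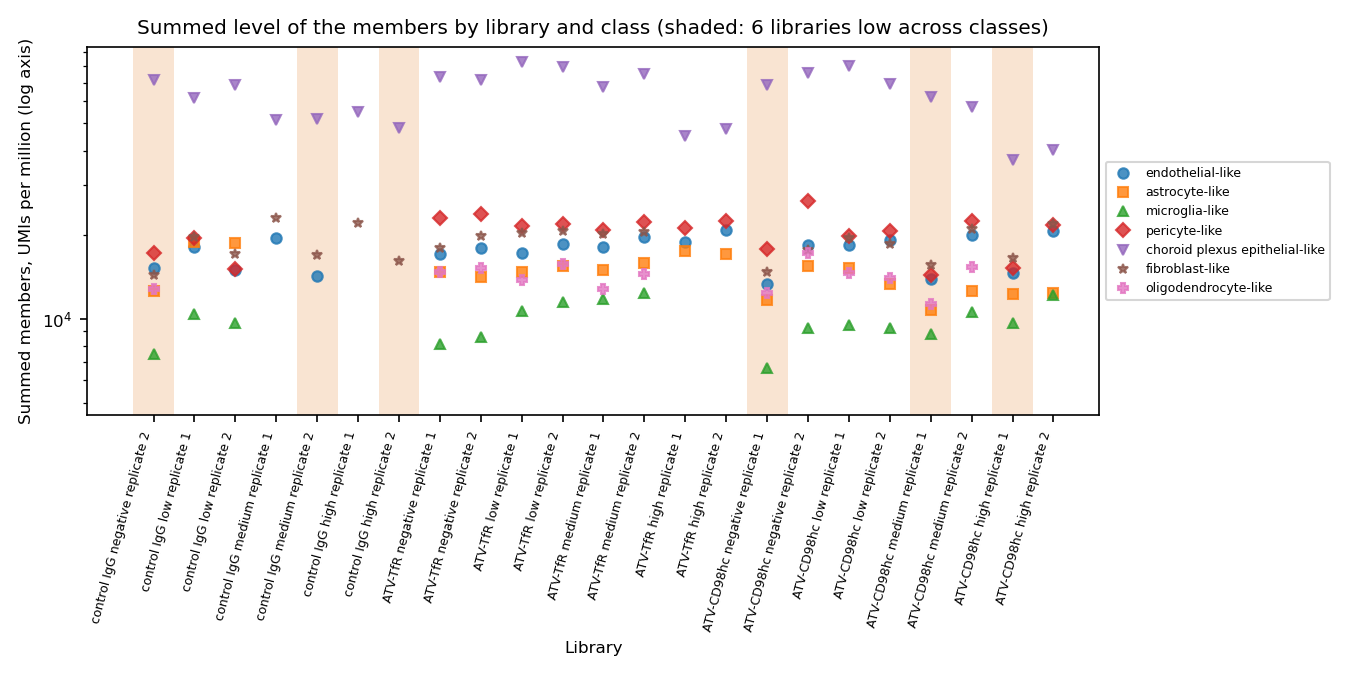
Summed level of the 87 members in CPM (vertical log axis) in each library (horizontal axis), with 1 symbol for each of 7 cell classes; classes with under 20 cells in a library are not drawn. The 6 shaded libraries lie low in most classes, and the choroid plexus epithelial-like class lies above the other classes drawn in all 23 libraries.

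Across cell classes the members were highest in choroid plexus epithelial-like cells, the secretory cells that make cerebrospinal fluid. There the 87 members together made up 64480 ± 6280 CPM (SD, n = 6 pools), with pools between 57293 and 71856. Smooth muscle-like cells came next with 26856 ± 3050 (n = 5), followed by dividing cell-like cells with 21555 ± 2262 (n = 5). No pool of any other class reached the lowest choroid plexus pool. Pericyte-like (19777 ± 3041), fibroblast-like (19008 ± 1896), ependymal-like (18351 ± 2212) and endothelial-like cells (17824 ± 2628) did not differ from each other beyond their spread. Means were lower in astrocyte-like (15136 ± 2885), oligodendrocyte-like (14208 ± 1562), neuron-like (13414 ± 3128) and oligodendrocyte precursor-like cells (12030 ± 3204). The mean ± SD of each of these overlapped that of endothelial-like cells. Border macrophage-like (11250 ± 1339), neutrophil-like (10536 ± 1738) and microglia-like cells (9034 ± 972), the myeloid cells of the data, had the lowest means. Classes of several clusters were not even within themselves. Over all libraries the clusters of the astrocyte-like class ranged from 4574 CPM (cluster 4) and 9399 (cluster 5) to 38518 (cluster 7, 1499 cells), the 2 oligodendrocyte-like clusters had 14726 and 6751, and the endothelial-like clusters had 13631 to 20384, so the level of a class also depends on its mix of clusters. These levels are a description with no test, since the classes were made from the same cells. The neuron-like cluster was led by Dpp10, Nrg3, Chga and Cga, so it does not stand for the neurons of the brain as a whole.

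By gene, 77 of the 87 members (88.5%) had their highest level in choroid plexus epithelial-like cells, against 5.71% of the 15404 genes that reached 10 CPM in any class. Relative to the median of the other classes, the median member stood at a log2 ratio of 1.84 there, while the median of all these genes was -0.36. All 8 members of complex III, 16 of 17 of complex V, 39 of 45 of complex I and 14 of 17 of complex IV were highest there, with median log2 ratios of 2.39, 2.19, 1.62 and 2.11. Among genes outside the symbol rule, this class was the highest for 8 of 12 other nuclear respiratory chain genes, 8 of 14 genes of the tricarboxylic acid cycle and 10 of 20 of glycolysis and lactate transport. It was the highest for 5 of the 13 mitochondrially encoded subunits, 8 of 36 assembly factors outside the rule, 4 of 82 cytosolic ribosomal protein genes and 0 of 12 regulators of mitochondrial biogenesis. The differences between these lists were not tested. Only 10 members had their highest level elsewhere, and they include the pericyte isoforms Cox4i2 and Ndufa4l2. The assembly factors Ndufaf2 and Ndufaf3 were highest in ependymal-like cells, Ndufaf4 in astrocyte-like and Ndufaf7 in endothelial-like cells.

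**Figure D2:**
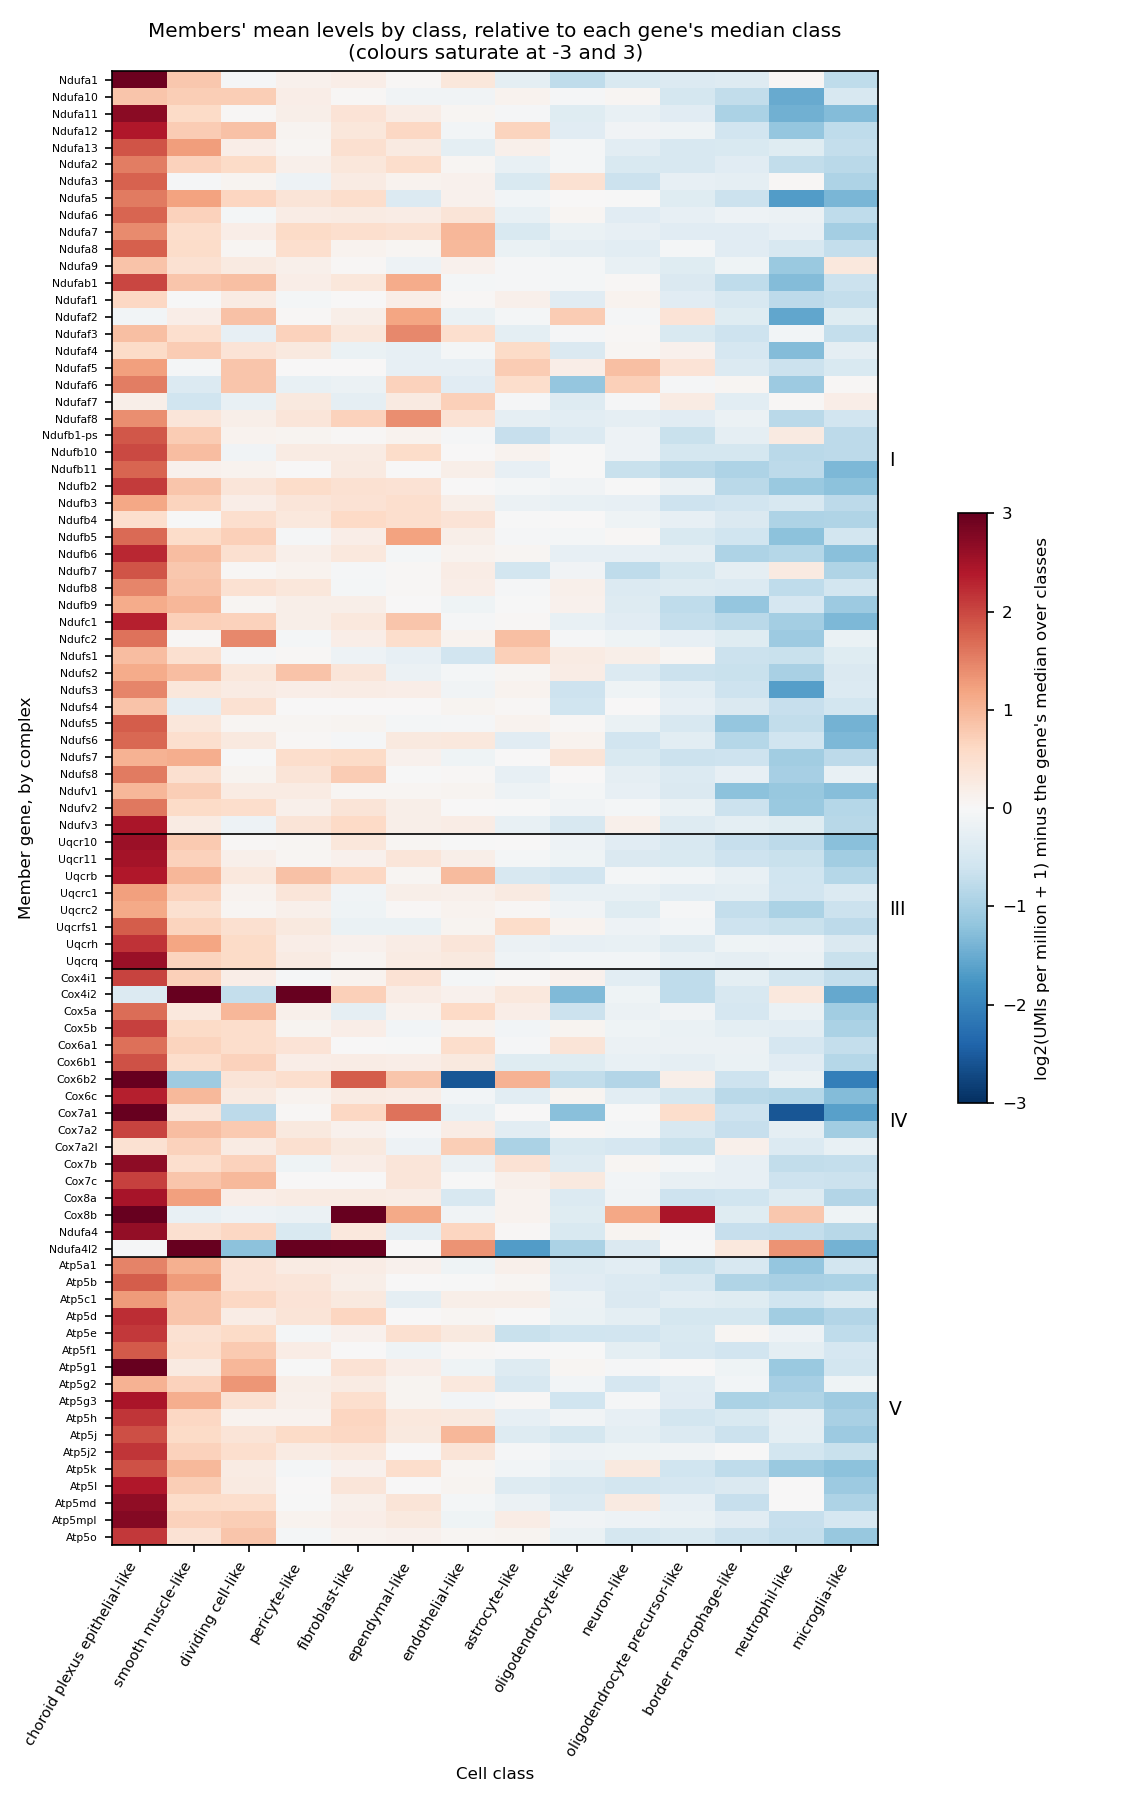
Level of each member (rows, grouped by complex) in each of the 14 classes (columns), as log2 of CPM + 1 minus the gene's median over classes; red is above and blue below that median. The choroid plexus column is red for nearly all rows, and Cox4i2 and Ndufa4l2 stand out in the smooth muscle-like and pericyte-like columns instead.

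The lowest class was microglia-like for 42 members, neutrophil-like for 32 and border macrophage-like for 6. The ratio of a member's highest to its lowest class had a median of 7.32, and 79 of the 87 members reached 10 CPM in all 14 classes. In complex I the largest ratios belonged to the accessory subunits Ndufa11, Ndufa1 and Ndufa12, the last of them close to Ndufc1. Ndufa11 had 1176 ± 91.8 CPM in choroid plexus epithelial-like cells (SD, n = 6), 188 ± 27.2 in endothelial-like and 72.2 ± 10.5 in microglia-like cells. In complex III the ratios were largest for the small subunits Uqcr10, Uqcr11 and Uqcrq, with 1291 ± 143, 1364 ± 176 and 1226 ± 147 in choroid plexus epithelial-like cells against 212 ± 42.7, 272 ± 63.8 and 248 ± 42.9 in endothelial-like cells. In complex IV, Cox8a stood at 3907 ± 489 against 503 ± 80 and Cox4i1, the common form of the largest nuclear subunit, at 1971 ± 143 against 468 ± 36.5. In complex V, Atp5g3 stood at 996 ± 70 against 172 ± 18.5 and Atp5md at 869 ± 106 against 130 ± 30.9. The forms of complex IV subunits that are common to most tissues followed the same order, with Cox5a at 839 ± 104 against 397 ± 61.1, Cox5b at 1123 ± 112 against 290 ± 55.1, Cox6a1 at 407 ± 48.7 against 187 ± 16.3, Cox6b1 at 1038 ± 147 against 335 ± 65, Cox7a2 at 1117 ± 139 against 324 ± 61.2 and Cox7b at 837 ± 129 against 114 ± 12.9. None of these ranges of pools overlapped between the choroid plexus epithelial-like and endothelial-like classes. In smooth muscle-like cells the core subunit Ndufs7 (429 ± 49.7, n = 5) did not differ beyond its spread from its choroid plexus level of 415 ± 31.7. UMIs are not scaled by gene length, so these comparisons are of each gene across classes.

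Within endothelial-like cells, the members with the most captured UMIs per complex, an order not scaled by gene length, were as follows. In complex I they were Ndufa7 (480 ± 88.6), Ndufb9 (336 ± 48.5) and Ndufb11 (309 ± 41.5). In complex III they were Uqcrb (421 ± 74.7), Uqcrh (330 ± 37.7) and Uqcr11. In complex IV they were Ndufa4 (632 ± 108), a subunit named after complex I that is a part of complex IV, then Cox8a and Cox4i1. In complex V they were Atp5j (701 ± 87.1), Atp5h (544 ± 76.2) and Atp5e (406 ± 101). This order is that of the level over all libraries; by the mean over pools Atp5g2 (432 ± 70.5) came before Atp5e. For Ndufa7 and Atp5j, pericyte-like cells had 357 ± 62.3 and 527 ± 98.8, and the pools of both genes overlapped between these classes.

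The 13 mitochondrially encoded subunits were raised less than the members in choroid plexus epithelial-like cells. Relative to the median of the other classes, their median log2 ratio was 0.76 there, against 1.84 for the members and -0.36 for all genes that reached 10 CPM. The ratio of the summed UMIs of these 13 subunits to those of the members was 0.541 ± 0.12 (SD, n = 6 pools) in choroid plexus epithelial-like cells, the lowest of all classes. It was 1.13 ± 0.37 in endothelial-like, 1.1 ± 0.37 in pericyte-like, 1.79 ± 0.4 in microglia-like and 2.13 ± 0.35 in astrocyte-like cells, and highest in oligodendrocyte-like cells with 2.72 ± 0.55 (n = 5). Cells with over 10% of mitochondrial UMIs had been removed, which limits this ratio from above.

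The choroid plexus epithelial-like class held 2 clusters. The larger one (3785 cells) had a summed member level of 75747 CPM and the smaller one (722 cells, led by Htr2c, Frmpd4 and Prlr) 37078. The smaller cluster held 50.8% of the class in the ATV-TfR high bins and 65.4% in the ATV-CD98hc high bins, while the larger one held 94.8% and 93% of the class in their negative bins. Summed member levels per library were 45213 and 47860 in the high bins of ATV-TfR and 36885 and 40285 in those of ATV-CD98hc, while the negative bins had 73173 and 71615 in ATV-TfR and 68600 and 76099 in ATV-CD98hc. The high bins were lower than the negative bins in every pool of both ATVs, and this was not tested in a fit. In the same cells the 12 summed endothelial markers had 86 and 88 CPM in the negative and 3897 and 1721 in the high bins of ATV-TfR, and 73 and 54 against 2157 and 2095 in ATV-CD98hc. Of these markers 7 to 9 were at 0 in the negative bins and none in the high bins, and their part was not tested.

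Complex IV isoforms were the members with the strongest class pattern. Ndufa4l2 (ENSMUSG00000040280, a paralog of Ndufa4 known as a hypoxia-induced gene, chr10:127509274-127517154) and Cox4i2 (ENSMUSG00000009876, the alternative form of Cox4i1, chr2:152753916-152765039) marked mural cells of vessels. Coordinates are those of the RefSeq table on GRCm38.p6. In pericyte-like cells Ndufa4l2 had 1542 and 1442 CPM in the ATV-TfR pools, 830 and 1280 in the ATV-CD98hc pools and 881 and 1073 in the control IgG pools. A pool sums all its bins, whose numbers of pericyte-like cells differ between treatments, so these values do not compare treatments. The negative bins alone had 2243 and 2203 in ATV-TfR and 1647 and 2713 in ATV-CD98hc. In control IgG replicate 1 only the low bin held at least 20 pericyte-like cells, with 37. The 5 smooth muscle-like pools of Ndufa4l2 lay between 311 and 410, and its fibroblast-like pools between 15.8 and 60.2. Endothelial-like cells had 11.6 ± 2.7 (SD, n = 6) and microglia-like cells 0.861 ± 0.599. Pericyte-like pools lay above those of every other class, and smooth muscle-like pools above all but these. At levels as low as those of microglia-like cells, transcripts free in the suspension cannot be told apart from expression.

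Cox4i2 was likewise highest in pericyte-like and then in smooth muscle-like cells. In pericyte-like cells it had 704 and 630 CPM in the ATV-TfR pools, 372 and 613 in the ATV-CD98hc pools and 564 and 484 in the control IgG pools. These pools also mix the bins unevenly and do not compare treatments. The negative bins alone had 1043 and 954 in ATV-TfR and 781 and 1236 in ATV-CD98hc. Smooth muscle-like pools had 175 to 224. All pools of astrocyte-like, endothelial-like and microglia-like cells lay under 10. The astrocyte-like class was not even within itself. Its cluster 3 had 31.4 ± 9.91 and its cluster 7 had 24.7 ± 11.6 (SD over pools), against 0.983 ± 0.22 in cluster 5. An unnamed cluster led by Rgs5, Ndufa4l2 and Higd1b, which are known in pericytes, also held endothelial markers. It had 232 CPM of Ndufa4l2 and 97.5 of Cox4i2 and entered no class. This cluster held 1194 cells in the high and 3 in the negative bins of ATV-TfR, and 723 and 3 in those of ATV-CD98hc. The pericyte-like class held 849 and 558 cells in the 2 ATV-TfR high libraries. The comparisons of bins in pericyte-like cells leave this cluster out, and its part was not tested.

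As a share of its pair, Ndufa4l2 gave 79.5% ± 6.22 (SD, n = 6 pools) of the UMIs of Ndufa4 and Ndufa4l2 in pericyte-like cells, 38.2% ± 2.07 (n = 5) in smooth muscle-like, 6.94% ± 3.24 in fibroblast-like and 1.8% ± 0.292 in endothelial-like cells. Cox4i2 gave 53.9% ± 3.92 of the UMIs of Cox4i1 and Cox4i2 in pericyte-like cells, 20.4% ± 1.74 in smooth muscle-like and 1.02% ± 0.166 in endothelial-like cells. In the negative bins alone, where pericyte-like cells of the ATVs hold few endothelial transcripts, the pericyte-like share of Ndufa4l2 was 95.2% ± 4.26 (SD, n = 5 libraries). Ndufa4 itself stood at 84.6 ± 47.4 CPM there and Ndufa4l2 at 1995 ± 596. The share of Cox4i2 in these bins was 62.8% ± 4.97. In smooth muscle-like cells the share of Ndufa4l2 in the negative bins was 37.8% ± 2.47, and in fibroblast-like cells it was 21.1% ± 5.7, with Ndufa4l2 at 101 ± 34.5 CPM. The fibroblast-like class held 2 clusters with unlike levels of Ndufa4l2, 87.2 ± 14.3 in cluster 20 (n = 5 pools) and 15 ± 8.44 in cluster 33 (n = 6). Cluster 20 held 94.5% to 98.1% of the class in the negative bins, where the 9 pericyte markers summed to between 5237 and 7435 CPM. Their part in the level of Ndufa4l2 was not tested. A share describes captured transcripts, which are not scaled by gene length.

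Choroid plexus epithelial-like cells held the other 3 restricted isoforms. Cox8b (chr7:140898942-140900446), known from heart and muscle, had 213, 170, 275, 367, 162 and 241 CPM in the 6 choroid plexus pools and 19.3 ± 4.03 (SD, n = 6) in fibroblast-like cells. Of the fibroblast-like clusters, cluster 33 had 28 ± 4.88 (n = 6) and cluster 20 had 2.08 ± 1.73 (n = 5), and the fibroblast-like negative bins, nearly all of cluster 20, had 1.12 ± 1.55 (n = 5 libraries). Endothelial-like cells had 0.433 ± 0.125. All choroid plexus pools were above all pools of the other classes. Cox8b was nevertheless a small part of its family, with 5.65% ± 1.15 of the UMIs of Cox8a and Cox8b in choroid plexus epithelial-like cells. Cox7a1 (chr7:30184171-30186030), another form known from heart and muscle, had 81.4 ± 18.4 CPM and 6.76% ± 0.905 of Cox7a1 and Cox7a2 there. Ependymal-like cells came near it in share (5.99% ± 2.5, n = 5) and not in level (17.3 ± 8.14). Cox6b2 (chr7:4751792-4753094), known from testis, had 184 ± 28.9 CPM in choroid plexus epithelial-like cells and 48.1 ± 6.78 in fibroblast-like cells. As a share of Cox6b1 and Cox6b2 it did not differ beyond the spread between these classes (15.1% ± 1.65 and 13.2% ± 2.91), and it was lowest in endothelial-like cells with 0.418% ± 0.141.

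**Figure D3:**
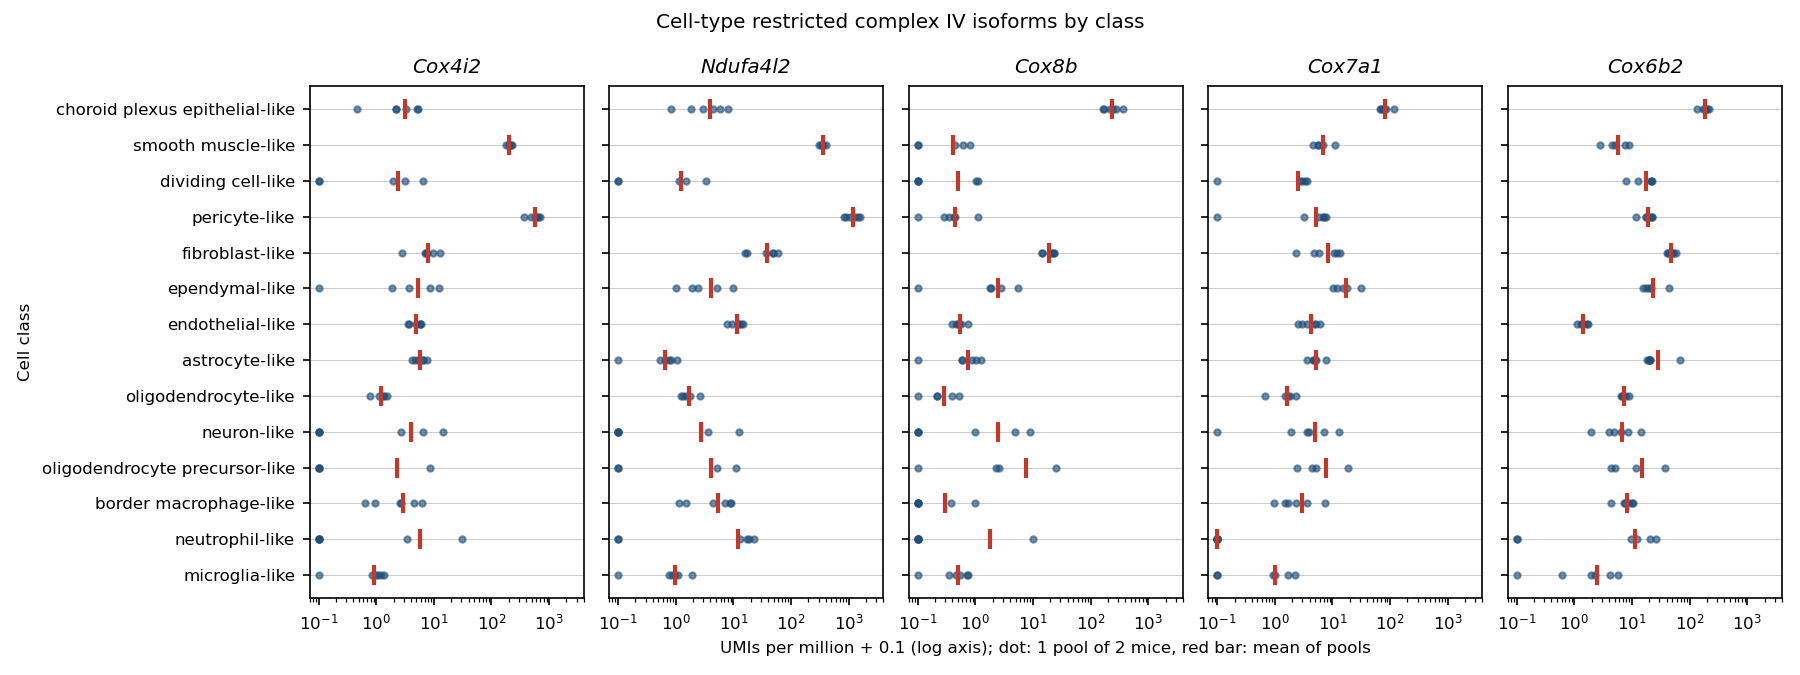
Level of the 5 restricted complex IV isoforms (panels) in each class (vertical axis) as CPM + 0.1 on a log axis; dots are pools and red bars their means. Cox4i2 and Ndufa4l2 are highest in pericyte-like and then smooth muscle-like cells, and Cox8b, Cox7a1 and Cox6b2 in choroid plexus epithelial-like cells.

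The ring of complex V is built from a subunit that 3 genes encode, Atp5g1, Atp5g2 and Atp5g3, whose mature proteins are the same. Atp5g1 gave 61.9% ± 0.683 (SD, n = 6) of their UMIs in choroid plexus epithelial-like cells, with pools between 61.1% and 62.9%. It gave 19.9% ± 1.15 in smooth muscle-like and 28.2% ± 1.35 in ependymal-like cells (n = 5 each). Atp5g2 had its largest shares in microglia-like (59.2% ± 2.96) and dividing cell-like cells (57.8% ± 2.5) and gave 15.9% ± 0.333 in choroid plexus epithelial-like cells. In level, Atp5g1 had 2783 ± 261 CPM in choroid plexus epithelial-like and 178 ± 28.2 in endothelial-like cells, while Atp5g2 was highest in dividing cell-like cells with 877 ± 57.6. These 3 genes and several other members have near-identical copies elsewhere in the genome, and how reads that fit more than 1 place were counted is not given in the sources used here.

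Promoter sequences of 71 of the 87 members were found in the RefSeq table (GRCm38.p6), as windows of 250 bases before to 50 bases after the start of transcription. Shown here are Cox8b and Cox8a, forms of the same subunit that are both highest in choroid plexus epithelial-like cells, of which Cox8b is low in all other classes and Cox8a is not, and Ndufa11, the complex I member with the largest ratio between classes. Sequences run 5′ to 3′ on the gene's strand, and capitals mark matches to the motifs searched on both strands. The motifs were the TATA box TATAAA, the ETS core CCGGAA, the CCAAT box CCAAT and the NRF1 site, whose letters are those in capitals in the Ndufa11 window. The Cox8b window (chr7:140900397-140900696, minus strand) holds TATAAA at base 255 of the window. Since 250 bases lie before the start, this match lies after the annotated start, and the name TATA box means its letters alone. The Cox8a window (chr19:7217567-7217866, minus strand) holds the ETS core at bases 247, 277 and 284, of which 247 and 284 are on the opposite strand. It also holds the CCAAT box on the opposite strand at base 80. The Ndufa11 window (chr17:56717512-56717811, plus strand) holds the NRF1 site at base 191.
Cox8b: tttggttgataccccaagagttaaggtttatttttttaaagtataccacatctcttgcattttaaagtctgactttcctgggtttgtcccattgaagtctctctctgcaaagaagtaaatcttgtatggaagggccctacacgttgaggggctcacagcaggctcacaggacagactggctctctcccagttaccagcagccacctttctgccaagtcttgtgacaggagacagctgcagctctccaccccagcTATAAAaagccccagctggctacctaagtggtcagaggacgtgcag
Cox8a: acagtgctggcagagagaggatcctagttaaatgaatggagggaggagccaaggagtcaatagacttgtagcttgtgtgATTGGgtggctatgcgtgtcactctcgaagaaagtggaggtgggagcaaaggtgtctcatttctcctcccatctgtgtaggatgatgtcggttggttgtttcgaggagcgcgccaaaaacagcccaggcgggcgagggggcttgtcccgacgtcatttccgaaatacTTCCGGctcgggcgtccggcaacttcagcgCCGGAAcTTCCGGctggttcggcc
Ndufa11: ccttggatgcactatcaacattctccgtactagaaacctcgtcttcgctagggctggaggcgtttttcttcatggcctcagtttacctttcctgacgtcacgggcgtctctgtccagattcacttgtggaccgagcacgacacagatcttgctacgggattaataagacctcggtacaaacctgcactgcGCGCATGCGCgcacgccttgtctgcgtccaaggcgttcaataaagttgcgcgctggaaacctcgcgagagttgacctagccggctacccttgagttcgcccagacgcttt
Over the 76 windows of members, the ETS core was found in 35.5% and the NRF1 site in 9.21%, against 14.9% and 0.971% of all 32851 windows. The TATA box was found in 10.5% against 13.6%, and the CCAAT box in 42.1% against 37.4%. A match is a description of these letters and does not show that a factor binds there.

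The bins were then compared within cell classes, to ask whether cells of 1 class with more antibody signal differ in their levels of the members. UMIs were summed per class and library and tested in edgeR (quasi-likelihood test) over all genes, and a gene was called at a Benjamini-Hochberg adjusted p below 0.05. Levels are CPM of the library's class total, while log2 fold changes are from edgeR after its own scaling (TMM), so they can differ somewhat from the ratio of the levels. Where a pool is left out, its treatment has 1 library per bin, which is assumed to vary like the other groups. The same holds for ATV-CD98hc without the 6 low libraries, since its negative, medium and high bins then keep replicate 2 alone. Where a count under another setting has no share of all genes beside it, that share is not given here. Genes said to have bins without overlap were chosen because they were called, so this adds no support to the call.

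In endothelial-like cells of ATV-TfR mice, 5 of 86 members tested rose from the negative to the high bin and none fell. That is 5.81% of the members, against 4.60% of all genes tested called higher and 6.81% called lower. At an unadjusted p below 0.05 there were 25 members (29.1%), against 23.9% of all genes. The complex I subunit Ndufs4 had 179 and 174 CPM in the high bins against 119 and 94.9 in the negative bins (log2 fold change 0.98, SE 0.20, adjusted p = 0.0015). Ndufa7 had 514 and 603 against 304 and 366 (1.03, SE 0.26, adjusted p = 0.01). Neither gene's pools overlapped between the bins. The methyltransferase and assembly factor Ndufaf7 rose by 1.05 on the log2 scale (adjusted p = 0.014), Ndufb7 by 0.77 (adjusted p = 0.037) and the complex IV subunit Cox7b by 0.75 (adjusted p = 0.039). Other members of the isoform families of complex IV did not pass. Among them, Ndufa4 had 670 and 768 against 639 and 444 (0.68, SE 0.26, adjusted p = 0.094), Cox4i1 485 and 488 against 487 and 550 (0.19, SE 0.21, adjusted p = 0.61), and Cox8a 0.30 (SE 0.28, adjusted p = 0.56). The sign for Cox4i1 came from the scaling, since its mean CPM was lower in the high bins and its log2 fold change was -0.08 with RLE scaling (adjusted p = 0.88).

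The median log2 fold change of the members was 0.47, that of all genes was 0.21, and 83 of 86 members were above 0. With RLE in place of TMM scaling the medians were 0.19 and -0.06, so the members lay 0.25 above all genes under both. With RLE 65 of the 86 members were above 0 and only 1 was called. They were 0.29 and 0.04 without the 6 low libraries. The negative bins of ATV-TfR held only 209 endothelial-like cells, 49.8% of them in cluster 21 and 35.9% in cluster 19 (led by Plvap, Igfbp3 and Esm1). Cluster 25 was the largest in the high bins (32.8%). Of 13 genes known to be induced by tissue dissociation 4 fell in this contrast (median -0.24). In these cells astrocyte markers had 192 to 340 CPM in the negative and 89 to 91 in the high bins, and the 12 endothelial markers 21195 and 21624 against 30731 and 30591. The part of these in the result was not tested. Without either ATV-TfR pool no member was called, and without ATV-CD98hc replicate 1 or 2, whose libraries share the estimate of the spread, 26 and 33 were. Without the 6 low libraries 11 members were called. For the counts in these settings the share of all genes called is not given here. With the pool as a block, since the bins of a pool come from the same animals, 40 of the 86 members rose and none fell, against 9.76% of all genes called higher.

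In endothelial-like cells of ATV-CD98hc mice no member passed for the high against the negative bin in edgeR, against 2.08% of genes called higher and 4.60% lower. DESeq2 called none as well, and 18 members (20.9%) had an unadjusted p below 0.05, against 18.5% of all genes. The medians were 0.41 for the members and 0.23 for all genes, with 138 endothelial-like cells in the negative bins, and 4 of the 13 dissociation genes fell (median -0.92). Of these cells 55.8% were in cluster 21, while the high bins had 33.2% in cluster 26 and 23.5% in cluster 25. Astrocyte markers had 283 to 793 CPM in the negative and 63 to 71 in the high bins, and the 12 endothelial markers 23180 and 23377 against 31843 and 31720. The part of these was not tested. Cox8a had 395 and 584 CPM in the high and 379 and 738 in the negative bins, and Ndufa4 504 and 744 against 477 and 577, so the bins of both genes overlapped. With the pool as a block 13 of the 86 members tested rose, against 3.96% of all genes. The difference between the ATVs in this contrast was tested as an interaction. No member passed in edgeR or DESeq2, none had an unadjusted p below 0.05 against 6.08% of all genes, and 0.0383% of all genes were called higher in ATV-TfR and 0.0255% lower.

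Comparing the high bins directly, no member was called between ATV-TfR and ATV-CD98hc in endothelial-like cells, in edgeR or DESeq2. Of all genes 0.0958% were called higher and 0.0319% lower, and 1 member, Cox7a1, had an unadjusted p below 0.05, against 3.42% of all genes. Cox7a1 had 4.77 and 5.74 CPM in ATV-TfR and 2.91 and 3.94 in ATV-CD98hc (log2 difference 0.66, SE 0.31, adjusted p = 1). The log2 differences of 85 of the 86 members were above 0, with a median of 0.20 against 0.03 for all genes. This moved with the low ATV-CD98hc library of replicate 1. Without the 6 low libraries the median was -0.08. Those libraries were picked for low members, so leaving them out tends to lower this median by construction, and no conclusion is drawn from it. Without ATV-CD98hc replicate 2, which leaves only the low library, the count of members called rose. The share of all genes called there is not given here. In control IgG mice, whose negative bin is a lone library and is assumed to vary like the other groups, no member passed between the low and the negative bin, against 0.613% of genes called higher and 4.11% lower. DESeq2 called none, 2 members had an unadjusted p below 0.05 against 11.5% of all genes, and the medians were 0.12 and -0.01. Cluster 26 held 71.5% of the endothelial-like cells in the low bins of control IgG and 20.1% in the negative bin. With the pool as a block 1 member rose, against 1.49% of genes, and without ATV-CD98hc replicate 1 or 2 there were 2.

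In pericyte-like cells the called members with the largest fold changes belonged to the isoform families of complex IV. In ATV-TfR mice 4 of 86 members rose from the negative to the high bin and 3 fell, against 11.9% and 11.3% of all genes. Ndufa4 had 381 and 451 CPM in the high bins and 63.5 and 89.9 in the negative bins (log2 fold change 2.49, SE 0.26, adjusted p = 1.7e-07). Ndufa4l2 had 1157 and 1063 in the high bins and 2243 and 2203 in the negative bins (-0.96, SE 0.29, adjusted p = 0.019). Both libraries of a bin lay apart from both of the other bin for these genes, in opposite directions. Cox4i2 fell from 1043 and 954 to 521 and 466 (-0.97, SE 0.34, adjusted p = 0.038), and Cox4i1 had 482 and 486 against 501 and 543 (-0.07, adjusted p = 0.89). Atp5j (0.69), Ndufaf7 (0.66) and Ndufaf8 (0.61) rose with adjusted p of 0.028, 0.041 and 0.033, and Cox6b2 fell with -0.64 (adjusted p = 0.044).

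In ATV-CD98hc mice 1 member rose and 3 fell, against 11.0% and 10.1% of all genes. Ndufa4 had 282 and 418 CPM in the high bins and 42.8 and 63 in the negative bins (log2 fold change 2.79, SE 0.29, adjusted p = 2.6e-07). Ndufa4l2 had 642 and 987 against 1647 and 2713 (-1.39, SE 0.30, adjusted p = 0.0015). Cox4i2 had 286 and 489 against 781 and 1236 (-1.34, SE 0.34, adjusted p = 0.0064), and Cox6b2 9.85 and 13 against 30.4 and 32.4 (-1.37, SE 0.31, adjusted p = 0.0026). None of these 4 genes overlapped between the bins. The median member stayed near all genes, with -0.02 against -0.07 in ATV-TfR and -0.15 against -0.08 in ATV-CD98hc.

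Markers of endothelial cells moved with these results. In pericyte-like cells the summed level of the 12 endothelial markers was 527 to 1390 CPM in the negative bins of ATV-TfR and 582 to 625 in those of ATV-CD98hc, and 16838 to 16885 and 17964 to 19354 in the high bins. At most 1 of the 12 markers was at 0 in any of these libraries. The 9 pericyte markers together had 39409 and 36360 in the negative and 19601 and 19021 in the high bins of ATV-TfR, and 34318 and 45000 against 15064 and 18468 in ATV-CD98hc. Of the cytosolic ribosomal protein genes 40 and 39 of 82 were called higher. In endothelial-like cells, as above, Ndufa4 is high and Ndufa4l2 and Cox4i2 are low. The part of endothelial transcripts in these changes was not tested. In the control IgG negative library, 1 of the 6 low libraries, the endothelial markers had 8835. Ndufa4 had 164, Ndufa4l2 1170 and Cox4i2 532 there, each between the negative and the high bins of the ATVs. Ndufa4l2 and Cox4i2 lay close to ATV-TfR high replicate 1, which had 1157 and 521 with endothelial markers at 16838.

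**Figure D4:**
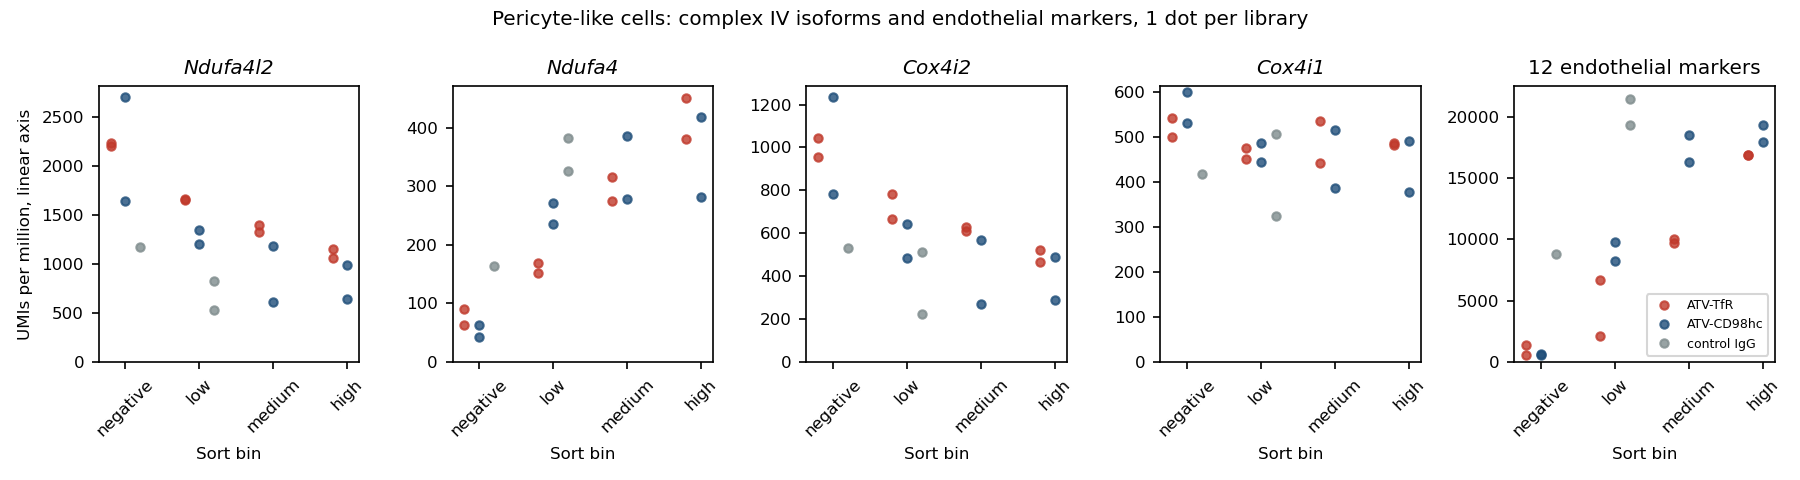
Levels of Ndufa4l2, Ndufa4, Cox4i2 and Cox4i1 and of 12 summed endothelial markers in pericyte-like cells, in CPM on linear axes, by sort bin; each dot is a library and its colour the treatment. Ndufa4l2 and Cox4i2 go down and Ndufa4 and the endothelial markers go up from the negative to the high bins of both ATVs, while Cox4i1 stays between 324 and 600.

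Without either ATV-TfR pool, the ATV-TfR comparison in pericyte-like cells kept 1 call, and Ndufa4 was called in both cases (log2 fold change 2.36 and 2.70). Ndufa4l2 lost its call there with log2 fold changes of -1.01 and -0.84 (adjusted p = 0.28 and 0.38), near the value with both pools. Cox4i2 lost it too (adjusted p = 0.38 and 0.43), with -0.89 without replicate 2. In these settings each bin was 1 library, and the levels given above moved by similar amounts in each pool. Without ATV-CD98hc replicate 1 or 2 there were 13 and 12 calls, without the 6 low libraries 13, and with DESeq2 3. In ATV-CD98hc mice Ndufa4, Ndufa4l2 and Cox4i2 were called without either of its pools, with adjusted p of at most 0.015. There 1 member rose and 2 fell without the 6 low libraries. With the pool as a block, 10 of the 86 members tested rose and 5 fell in ATV-TfR, against 16.5% and 18.1% of all genes. In ATV-CD98hc 5 of 86 rose and 12 fell, against 13.9% and 14.2%. In ATV-CD98hc the balance of directions turned without a filter on low counts (4 higher, 3 lower) and with doublets kept (5 higher, 3 lower).

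Microglia-like cells, the resident macrophages of the brain, were compared between the medium and the negative bins. In ATV-TfR mice 21 of 83 members tested rose from the negative to the medium bin and none fell. That is 25.3%, against 9.19% of all genes called higher and 2.60% lower, and 45 members (54.2%) had an unadjusted p below 0.05, against 24.7% of all genes. The median log2 fold change was 0.57 for the members and -0.07 for all genes. The summed members went from 8095 and 8571 CPM in the negative to 11736 and 12388 in the medium bins. The members called were 6 of complex I, 2 of complex III, 6 of complex IV and 7 of complex V.

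The complex IV subunit Cox5a had 235 and 191 CPM in the medium bins against 111 and 104 in the negative bins (log2 fold change 1.04, SE 0.20, adjusted p = 8.1e-04). Ndufa1 of complex I had 99.8 and 179 against 51 and 56.3 (1.41, SE 0.29, adjusted p = 0.0016). Uqcr10 of complex III had 157 and 170 against 79.4 and 86.6 (1.02, SE 0.23, adjusted p = 0.0034). For each of them both medium libraries were above both negative libraries. Cox7b (0.96), Ndufa13 (0.93), Atp5g1 (0.87), Atp5g3 (0.82), Cox4i1 (0.81), Ndufa4 (0.80), Cox6a1 (0.76) and Cox8a (0.70) rose as well, with adjusted p between 0.0044 and 0.04.

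Other genes rose in the same contrast. Of the genes of glycolysis and lactate transport 14 of 20 rose (median 1.19), of the cytosolic ribosomal proteins 33 of 83 (0.62), of the genes known to be induced by tissue dissociation 5 of 13 (0.78), and of the mitochondrially encoded subunits 0 of 13 (0.57). The medium bins of ATV-TfR held only 115 microglia-like cells, and the 12 endothelial markers had 228 to 471 CPM there against 47 to 58 in the negative bins. Markers of border macrophages had 83 to 221 against 35 to 51. The part of these in the result was not tested. Without ATV-TfR replicate 1 or 2 only 1 and 2 members were called, and without ATV-CD98hc replicate 1 or 2 39 and 36. Counts were 38 with RLE scaling, 39 with DESeq2 and 37 without the 6 low libraries. With the pool as a block 33 of the 83 members tested rose, against 11.1% of all genes. With RLE, with DESeq2 and without the 6 low libraries the share of all genes called is not given here. The medians of the members there were 0.72, 0.73 and 0.62, against 0.09, 0.10 and -0.03 for all genes. Clusters 0 and 1 held similar parts of the class in both bins, cluster 0 with 73.9% and 73.4%.

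In microglia-like cells of ATV-CD98hc mice 4 of 83 members rose from the negative to the medium bin and none fell, 4.82% against 4.17% of genes called higher and 0.676% lower. Cox7a2 had 154 and 160 CPM against 90 and 112 (log2 fold change 0.69, SE 0.19, adjusted p = 0.031), and Ndufa7 129 and 189 against 77.9 and 112 (0.78, SE 0.21, adjusted p = 0.031). Cox5a had 140 and 182 against 92.8 and 112 (0.67, adjusted p = 0.046), and Atp5j 205 and 246 against 124 and 167 (0.67, adjusted p = 0.05). The bins of these 4 genes did not overlap, which held for 32 of the 83 members. The number over all genes is not given here. The median was 0.34 for the members and -0.03 for all genes, and 0.21 for the members without the 6 low libraries. Endothelial markers had 3193 to 3559 CPM in the medium bins and 46 to 48 in the negative bins, with none and 3 to 7 of the 12 at 0, and markers of border macrophages had 44 to 93 against 25 to 44. Their part was not tested. No member was called without either ATV-TfR pool, without ATV-CD98hc replicate 1 or without the 6 low libraries, and 8 were called without ATV-CD98hc replicate 2. With the pool as a block 8 of the 83 members rose, against 5.74% of all genes.

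Astrocyte-like cells, whose endfeet cover the capillaries, gave few calls in ATV-TfR mice. From the negative to the medium bin 1 of 87 members rose and 1 fell, against 1.37% and 2.98% of all genes. The complex I subunit Ndufa13 had 333 and 365 CPM in the medium and 290 and 238 in the negative bins (log2 fold change 0.46, SE 0.13, adjusted p = 0.039). Ndufa4l2 had 0.519 and 0.389 against 1.97 and 1.27 (-1.76, SE 0.50, adjusted p = 0.049), levels that transcripts free in the suspension could give. The medians were 0.14 for the members and -0.01 for all genes. With DESeq2 Ndufa13 lost its call (0.44) and 2 members fell. The 12 endothelial markers had 36 to 45 CPM in the medium and 11 to 12 in the negative bins, and their part was not tested. Both calls were lost without either pool of ATV-TfR or of control IgG, and without ATV-CD98hc replicate 1 or 2 there were 11 and 12 calls. Without the 6 low libraries 9 members rose and 1 fell. Cluster 2 held 31.4% of the class in the negative and 39.3% in the medium bins, and within it alone 11 members rose and none fell, against 2.04% of genes called in each direction.

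In ATV-CD98hc mice 14 of 87 members fell from the negative to the medium bin and 2 rose, against 7.41% and 8.92% of all genes. Of those that fell, 7 belong to complex I, 4 to complex IV and 3 to complex V. Cox5a had 175 and 203 CPM in the medium and 262 and 335 in the negative bins (log2 fold change -0.63, SE 0.12, adjusted p = 5.1e-04). Cox4i2 had 3.06 and 3.96 against 6.32 and 8.57 (adjusted p = 0.014). Both genes were lower in both medium libraries than in both negative ones. Ndufab1, the acyl carrier protein, fell with -0.47 (adjusted p = 0.012), Ndufc2 with -0.44 (adjusted p = 0.017), the assembly factor Ndufaf4 with -0.40 (adjusted p = 0.0071), Cox8a with -0.39 (adjusted p = 0.03) and Atp5g2 with -0.38 (adjusted p = 0.019). Ndufa1 had 50.9 and 69 against 40.2 and 49.6 and rose (0.47, SE 0.15, adjusted p = 0.042), as did Ndufa4l2 with 1.89 and 4.65 against 0.399 and 0.428 (3.02, SE 0.56, adjusted p = 6.2e-04). Transcripts free in the suspension could give these levels of Ndufa4l2. All 13 mitochondrially encoded subunits rose, with a median of 0.75.

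The make-up of the class differed between these bins. Cluster 2 held 41.1% of the astrocyte-like cells in the negative bins of ATV-CD98hc and 23.3% in the medium bins, where cluster 5 was the largest with 34.2%. Within cluster 2 alone the direction turned, with 9 members higher and 2 lower against 7.32% and 4.48% of all genes, a median of 0.10, and Cox8a had a log2 fold change of 0.02. The endothelial markers had 863 to 943 CPM in the medium and 8 to 14 in the negative bins, and their part was not tested. Without ATV-CD98hc replicate 1 26 members were called and without replicate 2 there were 3. Without ATV-TfR replicate 1 or 2 there were 6 and 7. Without the 6 low libraries, a comparison of 1 medium with 1 negative library of ATV-CD98hc, 1 rose and 22 fell.

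**Figure D5:**
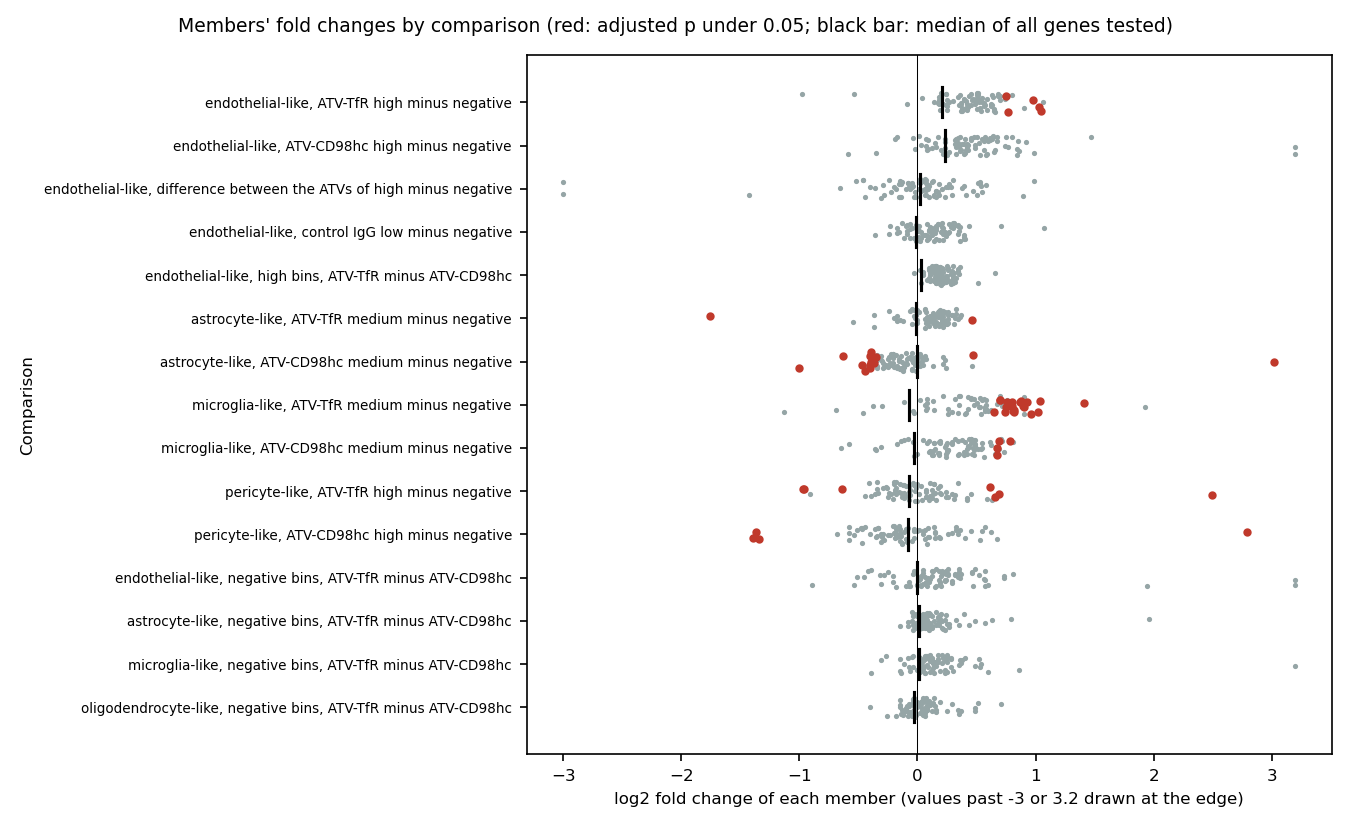
Log2 fold change of each member tested (dots, horizontal axis) in the 15 comparisons (rows); red dots passed an adjusted p below 0.05, black bars are the median of all genes tested, and values past the limits named on the axis are drawn at its edge. Most members lie to the right of the black bar in microglia-like cells, and in pericyte-like cells Ndufa4 lies far to the right while Ndufa4l2 and Cox4i2 lie to the left.

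The negative bins of the 2 ATVs were compared last, since cells there carry no AF647 signal above the gate. No member passed in edgeR between ATV-TfR and ATV-CD98hc in endothelial-like, astrocyte-like, microglia-like or oligodendrocyte-like cells, the myelin-forming cells. The members with an unadjusted p below 0.05 numbered 0, 9, 2 and 0, against 6.75%, 10.2%, 1.90% and 3.06% of all genes, and DESeq2 called 1 in astrocyte-like cells and none in the others. Of all genes 0.0383%, 0.747%, 0% and 0.0237% were called higher in ATV-TfR, and 0.0192%, 0.135%, 0% and 0.0158% lower. The median log2 differences of the members were 0.18, 0.08, 0.12 and 0.02, against 0.00, 0.01, 0.01 and -0.03 for all genes. Without the 6 low libraries, which leaves 1 negative library of ATV-CD98hc, these medians were -0.05, -0.09, -0.17 and -0.19. The ATV-CD98hc library left out had been picked for its low members, so a lower median follows largely from that choice. In astrocyte-like cells the count of members called rose without ATV-CD98hc replicate 2, which leaves only a low library, and without ATV-TfR replicate 1. The shares of all genes called in these settings are not given here.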

How the data were processed

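Single-cell libraries of 23 sorted samples were used as the UMI counts per gene and cell that the authors deposited. Reads were processed with Cell Ranger 7.1.0 against mm10, and Seurat 4 and Seurat 5 were used, per the submitters' processing notes. For the gene annotation and the handling of reads that fit several places, nothing is given in these sources. Groups were taken from the submitters' labels.

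Cells were kept from 500 genes and 800 UMIs upwards where mitochondrial UMIs made up 10% or less, and doublets were removed per library with Scrublet (scanpy 1.11.5), in 7 libraries by a percentile of the doublet score in place of its own threshold. Clusters came from 2000 variable genes without the members, 50 principal components, 15 neighbours and Leiden at resolution 1 (leidenalg 0.10.2), and were named from marker lists. Rules on unnamed clusters were partly set after seeing the data. UMIs were summed per class and library with at least 20 cells and tested in edgeR 4.0.16 (R 4.3.3) by the quasi-likelihood test with TMM scaling and filterByExpr, in 1 fit per class, with Benjamini-Hochberg adjustment over all genes and a threshold of 0.05. DESeq2 1.42.0 was an alternative. The 15 comparisons were each repeated under up to 17 alternatives. On simulated data for the endothelial-like ATV-TfR comparison (15661 genes), 3% of genes changed 1.5-fold and 42% of genes changed 2-fold were called. The changed genes were drawn from those with a mean above 20 CPM, and libraries were drawn as independent. These shares do not cover lower genes.

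Bins of a pool come from the same mice, so the pool pairs the bins within a treatment. The deviations of same-numbered libraries correlated with r from -0.1 to 0.75. Pools hold 2 mice each. P-values of the main fit rest on the spread between replicate libraries of a group, taken over all groups of a class. That fit leaves out the pairing and counts the bins of a pool as independent. Its p-values therefore do not measure the spread between pools alone. With the pool as a block, p-values rest on the spread within pools.

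The members and gene lists were chosen with earlier results of these data known. Genes named are the isoform families, per complex the 3 members with the largest ratio between classes and the 3 highest in endothelial-like cells, the members nearest the threshold, and per comparison up to 5 called members in each direction. Other names were chosen after their values were seen.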

Additional observations from a re-analysis of the deposited data

Results flagged for a closer look

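In astrocyte-like cells the medium bins lay on opposite sides of the negative bins in the ATVs, in each pool, for the summed members and, among the genes named for this contrast, for Ndufa4l2, Ndufc2 and Atp5g2. Over all 87 members, 23 were higher in both ATV-TfR pools and lower in both ATV-CD98hc pools, and 3 were lower and higher, while 4 were higher and 13 lower in all 4 pools. How many of all genes have these directions is not given here, so the counts have no background. The ATV-TfR values of the summed members in replicate 1 and of Atp5g2 in both pools were close to 0. This difference between the ATVs was not tested. The log2 ratios of medium over negative for the summed members were 0.03 and 0.17 in the ATV-TfR pools and -0.12 and -0.29 in the ATV-CD98hc pools. For Ndufa4l2 they were -1.93 and -1.71 against 2.25 and 3.44, at levels under 5 CPM. For Ndufc2 they were 0.18 and 0.39 against -0.28 and -0.62, and for Atp5g2 0.05 and 0.04 against -0.35 and -0.46. The make-up of the class moved with this: cluster 2 held 31.4% of the astrocyte-like cells in the negative and 39.3% in the medium bins of ATV-TfR, and 41.1% and 23.3% in those of ATV-CD98hc. Within cluster 2 alone the median log2 fold change of the members was above 0 in both ATVs, 0.26 in ATV-TfR (11 higher, 0 lower) and 0.10 in ATV-CD98hc (9 higher, 2 lower).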

How the results depend on the processing

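Counts of members called moved with the processing in most comparisons, and the cause was not tested. Except for the pool as a block and the largest astrocyte-like cluster, the share of all genes called is not given for these settings. These counts alone do not show whether the members moved more than other genes. Comparisons not named for a setting kept their count within 1.5 times. The largest cluster of a class means the largest in the negative bins, which is cluster 21 for endothelial-like cells. In endothelial-like cells, ATV-TfR high against negative (5 called), the count was 1 with RLE, 3 with DESeq2, 16 without a filter, 1 at an average log2 CPM of at least 4, 8 with doublets kept, 3 without mitochondrial, ribosomal protein and haemoglobin genes, 18 with only the libraries compared, 1 in the largest cluster alone, 11 without the 6 low libraries, and 0 to 33 when 1 pool was left out. For ATV-CD98hc (0 called) it was 10 without a filter, 1 at 5% mitochondrial UMIs, 2 with doublets kept, 3 without the low libraries and 0 to 3 with 1 pool left out. For control IgG (0 called) it was 1 without a filter and 0 to 2 with 1 pool left out, and for the high bins 0 to 51.

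In astrocyte-like cells, ATV-TfR (2 called), the count was 19 without a filter, 0 at log2 CPM 4, 1 at 5% mitochondrial UMIs, 1 with doublets kept, 11 with only the libraries compared, 11 in the largest cluster, 10 without the low libraries and 0 to 12 with 1 pool left out. For ATV-CD98hc (16 called) it was 25 without a filter, 8 at 5% mitochondrial UMIs, 2 with only the libraries compared and 3 to 26 with 1 pool left out. In the largest cluster the direction turned (11 called, Cox8a 0.02). In the negative bins it was 1 with DESeq2, 4 without a filter and 0 to 30 with 1 pool left out.

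In microglia-like cells, ATV-TfR (21 called), the count was 38 with RLE, 39 with DESeq2, 12 without a filter, 32 with doublets kept, 44 with only the libraries compared, 37 without the low libraries and 1 to 39 with 1 pool left out. For ATV-CD98hc (4 called) it was 1 without a filter, 1 at log2 CPM 4, 0 with only the libraries compared, 2 in the largest cluster, 0 without the low libraries and 0 to 8 with 1 pool left out. In pericyte-like cells, ATV-TfR (7 called), it was 3 with DESeq2, 11 with doublets kept, 19 with only the libraries compared, 13 without the low libraries and 1 to 13 with 1 pool left out. For ATV-CD98hc (4 called) the direction turned without a filter (7 called) and with doublets kept (8 called).

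With the pool as a block the counts that moved were 40, 13 and 1 in endothelial-like cells (ATV-TfR, ATV-CD98hc, control IgG), 33 and 8 in microglia-like and 15 and 17 in pericyte-like cells. Between treatments pools are not paired, and the blocked fit, with 4 calls in the high bins and 3 in the astrocyte-like negative bins, rests on the spread within pools.

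The setting with only the largest cluster and the one without the low libraries were chosen after seeing the data, the low libraries by the level of the members itself. The control IgG comparison could not be fitted without control IgG replicate 2 or without the low libraries. Of the values for single genes and levels under alternatives, 683 kept their direction and side of the threshold, 161 lost their call, 4 moved and 1 turned. The endothelial-like negative bins and the microglia-like medium bins held few cells, and the effect of cell number was not tested.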
